A study of Mus musculus with 6 samples.

Results

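The genes described here are 8 genes of phenylalanine and tyrosine breakdown and of the supply of its cofactor tetrahydrobiopterin, among 55450 genes in the deposited table. They were chosen by symbol: Tat, Hpd, Hgd, Gstz1 and Fah for the steps from tyrosine to fumarate, and Gch1, Pcbd1 and Qdpr for the making and recycling of tetrahydrobiopterin. Each symbol matched 1 row, and all 8 genes passed the filter on low counts. The samples are livers of C57BL/J mice that were 10 weeks old, 3 labelled as LKB1 knock out and 3 as normal (WT). The knockout mice carried LKB1 fl/fl alleles, in which the gene Stk11 is flanked by loxP sites, and the WT mice did not. Both groups had received AAV8 Cre, an adeno-associated virus of serotype 8 carrying the Cre recombinase, at 6 weeks of age, 4 weeks before the liver was taken, so the controls share the virus and the recombinase. The labels give no promoter for the Cre, and other cells of the liver are also in the sample.

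Tyrosine is broken down in hepatocytes. Tyrosine aminotransferase moves its amino group to 2-oxoglutarate, and the keto acid is then oxidised to homogentisate, opened to maleylacetoacetate, isomerised and cleaved to fumarate and acetoacetate. Phenylalanine enters the route by hydroxylation to tyrosine, a step that uses tetrahydrobiopterin and that was not analysed here. Tetrahydrobiopterin is made from GTP and is regenerated after each use.

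Libraries held between 47659122 and 56147667 counts. Values are given as CPM, counts scaled to a common library size after TMM normalisation, and a gene is called where edgeR's quasi-likelihood test gave it a p-value, adjusted over all genes, below 0.05. Stk11, the targeted gene, had 22.1, 14.4 and 11.4 CPM in replicates 1 to 3 of the knockout group and 66.1, 64.2 and 69.7 CPM in those of the WT group (edgeR adjusted p = 0.0167). In each group replicate 1 had many Xist counts (42472 in knockout, 29243 in WT) and at most 6 counts of 4 Y-linked genes, while replicates 2 and 3 had at most 16 Xist counts and at least 6146 of the Y-linked genes. This difference between libraries is not in the labels, and values within the 4 libraries with Y-linked counts and within the Xist pair are given where they bear on a result.

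The promoters are shown because their genes, Tat, Hpd and Hgd, are the members whose transcripts were called. Each line holds the 250 bases before the RefSeq start site, build GRCm38.p6, 5′ to 3′ on the strand of the gene. The windows are chr8:109990186-109990435 on the plus strand for Tat, chr5:123182724-123182973 on the minus strand for Hpd and chr16:37579903-37580152 on the plus strand for Hgd. Capitals mark matches, on either strand, to the CCAAT box (CCAAT) or the GC box (GGGCGG).
Tat: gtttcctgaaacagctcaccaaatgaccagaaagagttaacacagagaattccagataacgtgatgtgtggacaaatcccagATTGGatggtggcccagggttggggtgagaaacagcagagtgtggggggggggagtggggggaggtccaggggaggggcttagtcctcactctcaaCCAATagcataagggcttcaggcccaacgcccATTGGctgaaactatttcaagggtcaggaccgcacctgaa
Hpd: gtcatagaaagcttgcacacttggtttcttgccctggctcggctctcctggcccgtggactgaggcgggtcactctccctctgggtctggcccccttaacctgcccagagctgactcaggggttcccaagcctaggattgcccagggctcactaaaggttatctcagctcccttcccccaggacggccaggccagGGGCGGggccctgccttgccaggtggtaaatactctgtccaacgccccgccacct
Hgd: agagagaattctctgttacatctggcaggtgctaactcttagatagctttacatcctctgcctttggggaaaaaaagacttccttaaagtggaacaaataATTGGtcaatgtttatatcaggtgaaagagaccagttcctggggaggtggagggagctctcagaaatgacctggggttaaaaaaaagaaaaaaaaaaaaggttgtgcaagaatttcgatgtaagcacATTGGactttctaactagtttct
The Tat window held 3 CCAAT matches and the Hgd window 2, while the Hpd window held none of these and 1 GC box. Members that were not called had such matches too: the Qdpr window held 2 CCAAT boxes and 1 GC box, that of Gch1 1 and 2, each of the 2 Gstz1 windows 1 and 1, that of Fah 0 and 3 and that of Pcbd1 0 of either. Over 32851 promoter windows of the same length, 33.8% held a CCAAT box and 32.7% a GC box. The core of the cAMP response element (TGACG, in 17.8% of all windows), a half-site of the glucocorticoid receptor (AGAACA, 16.1%) and a half-site of the factor HNF1 (GTTAAT, 6.43%) had no match in these 3 windows. No matches of different motifs overlapped. The letters TGACG were present in the windows of Gch1 and of 1 of the 2 Gstz1 start sites, and GTTAAT in that of Pcbd1. Sequence outside the windows was not searched. A match is a description of letters, and the base composition of the windows differed, from 38.8% G and C for Hgd to 62.8% for Hpd.

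The early steps of tyrosine breakdown rose in knockout liver, by 2.44-fold to 3.74-fold, and the last steps were not called. Of the 8 genes 3 were called as higher and 0 as lower, where 3.37% of 14539 tested genes were called, 2.15% as higher and 1.22% as lower. An unadjusted p-value under 0.05 was found for 5 of the 8, and for 26.3% of all genes tested. The median log2 fold change of the 8 genes was 0.63, beside 0.01 for all genes tested. The 8 genes together held between 9881 and 15531 CPM in knockout livers and between 4704 and 4974 in WT livers, which did not overlap. Most of this sum came from Tat, Hpd and Hgd, with means of 4128, 3559 and 1937 CPM in knockout and 1138, 1459 and 518 in WT.

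**Figure D1:**
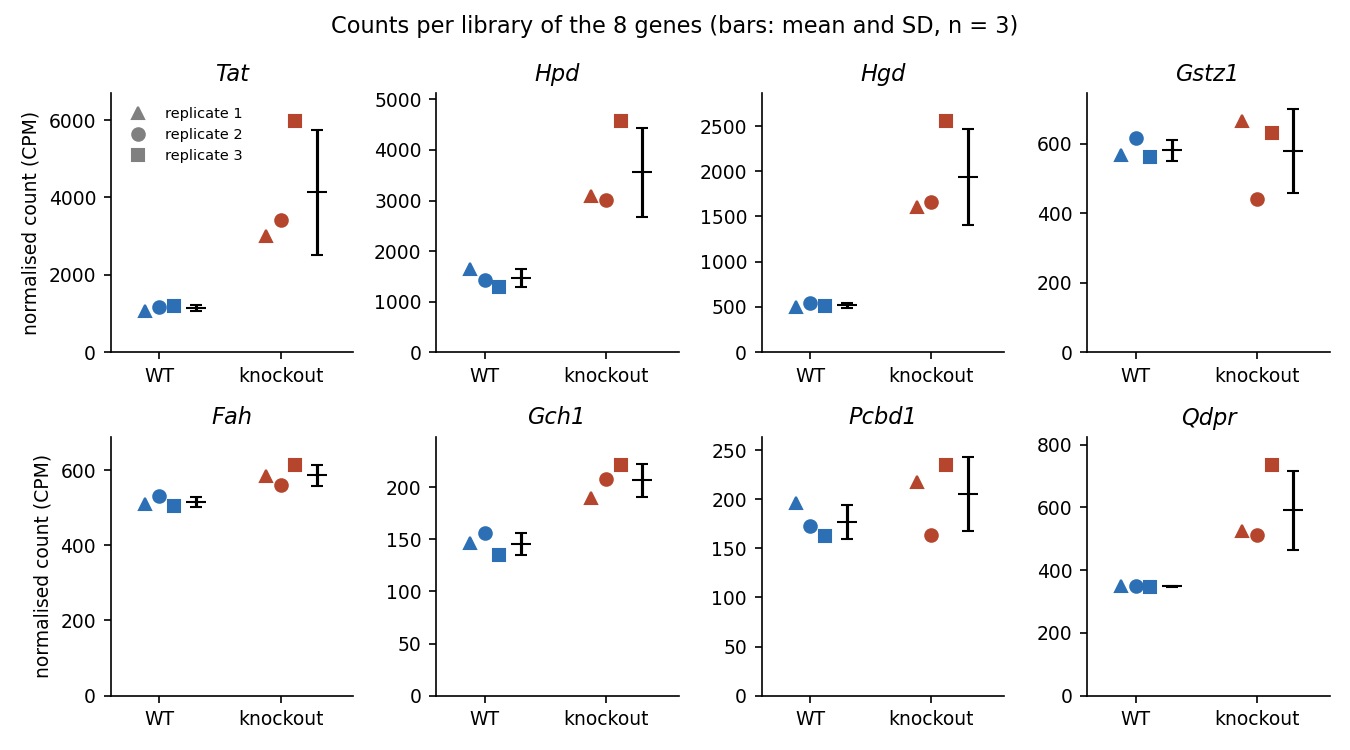
Normalised counts (CPM, linear axes from 0) of the 8 genes in the 3 WT (blue) and 3 knockout (red) livers. Symbols mark the replicate, and bars show mean and SD (n = 3). For Tat, Hpd and Hgd every knockout library lies far above every WT library, with knockout 3 the highest, whereas the groups overlap for Gstz1 and Pcbd1.

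Tat encodes tyrosine aminotransferase, the first enzyme of the route (ENSMUSG00000001670.13, GRCm38 chromosome 8, 109990437 to 109999803, plus strand, protein-coding). Its transcripts stood at 3005, 3409 and 5971 CPM in knockout replicates 1 to 3 and at 1058, 1165 and 1190 CPM in WT replicates 1 to 3. All 3 knockout libraries were above all WT libraries, and knockout 3 was well above the other knockout libraries. The means were 4128 ± 1609 and 1138 ± 70.5 CPM (SD, n = 3 each). On the log2 scale the difference was 1.86 ± 0.314 (SE), or 3.63-fold, with an edgeR adjusted p-value of 0.0344.

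Hpd encodes 4-hydroxyphenylpyruvate dioxygenase, which makes homogentisate (ENSMUSG00000029445.13, chromosome 5, 123171807 to 123182727, minus strand). It had 3093, 3015 and 4569 CPM in knockout and 1649, 1430 and 1298 CPM in WT. The groups did not overlap, and the lowest knockout library was above the highest WT library by less than for Tat. The log2 fold change was 1.29 ± 0.255 (SE), or 2.44-fold, with an edgeR adjusted p-value of 0.048, just under the threshold. Its range overlaps Psmd9 on the other strand, whose counts came to at most 2.02% of those of Hpd in any library.

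Hgd encodes homogentisate 1,2-dioxygenase, which opens the aromatic ring (ENSMUSG00000022821.13, chromosome 16, 37580153 to 37632020, plus strand). It had 1602, 1656 and 2553 CPM in knockout and 499.5, 548 and 506 CPM in WT. Every knockout library held about the same excess over WT except knockout 3, which was higher still. Its log2 fold change of 1.90 ± 0.247 (SE), or 3.74-fold, was the largest of the 8 and had the smallest edgeR adjusted p-value, 0.0194.

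The last 2 enzymes of the route were not called. Gstz1 encodes maleylacetoacetate isomerase (ENSMUSG00000021033.11, chromosome 12, 87147165 to 87164723, plus strand). It had 665, 442 and 631 CPM in knockout and 567, 616 and 561 CPM in WT, so that knockout libraries lay both above and below the WT range. The log2 fold change was 0.00 ± 0.206 (SE; edgeR adjusted p = 0.992), and its sign changed with the scaling and with the libraries used. The overlapping gene Pomt2 on the other strand reached at most 3.85% of the Gstz1 count.

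Fah encodes fumarylacetoacetase, which releases fumarate and acetoacetate (ENSMUSG00000030630.16, chromosome 7, 84585159 to 84606722, minus strand). It had 585, 559 and 614 CPM in knockout and 510, 531 and 503 CPM in WT. The groups did not overlap but lay close together, 1.14-fold apart, with a log2 fold change of 0.19 ± 0.152 (SE; edgeR adjusted p = 0.469). Groups that did not overlap, with knockout higher, were found for 16.9% of all genes tested.

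Ratios of counts within a library do not depend on how libraries are scaled, and they show the unequal change along the route. The count of Hgd over that of Fah was 2.74, 2.96 and 4.16 in knockout and 0.979, 1.03 and 1.01 in WT. Tat over Fah was 5.14, 6.10 and 9.72 in knockout and 2.07, 2.19 and 2.36 in WT. Hpd over Fah was 5.29, 5.39 and 7.44 against 3.23, 2.69 and 2.58. None of these 3 ratios overlapped between the groups. Gstz1 over Fah was 1.14, 0.79 and 1.03 against 1.11, 1.16 and 1.11, which overlapped. The ratios were chosen after the counts were seen and are given without a test.

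**Figure D2:**
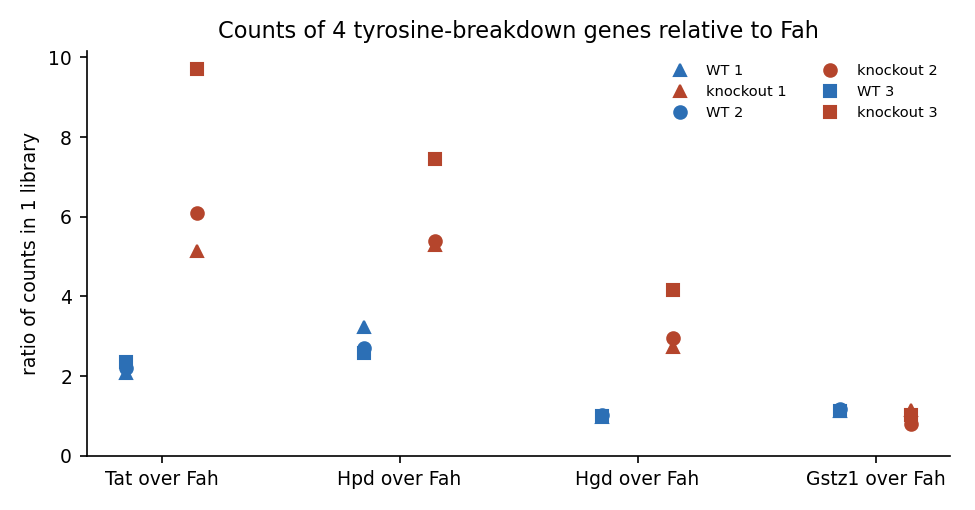
Ratio of the count of Tat, Hpd, Hgd or Gstz1 to the count of Fah in the same library (linear axis from 0), with WT in blue and knockout in red and a symbol for each replicate. The ratios of Tat, Hpd and Hgd are higher in all 3 knockout libraries, while those of Gstz1 overlap around 1.

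The calls of Tat, Hpd and Hgd depended on which library was left out. Without knockout 1, where 16% of 14833 tested genes were called as higher, all 3 kept their call, with edgeR adjusted p-values of 0.00471 for Tat, 0.0105 for Hpd and 0.00282 for Hgd. Without knockout 2 only Hgd did (adjusted p = 0.0402), against 0.0693 for Tat and 0.0894 for Hpd. Without knockout 3, WT 1, WT 2 or WT 3 none of the 3 was called, and the adjusted p-values for Tat, Hpd and Hgd were 0.0943, 0.149 and 0.0509 without knockout 3, 0.0912, 0.0974 and 0.055 without WT 1, 0.186, 0.218 and 0.133 without WT 2, and 0.170, 0.215 and 0.133 without WT 3. In these 6 refits the log2 fold change stayed between 1.496 and 2.04 for Tat, between 1.07 and 1.40 for Hpd and between 1.65 and 2.02 for Hgd.

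Within the 4 libraries with Y-linked counts the log2 fold changes were 1.99 ± 0.333 for Tat, 1.47 ± 0.283 for Hpd and 1.99 ± 0.272 for Hgd (SE; edgeR adjusted p = 0.00981, 0.0145 and 0.00544). In this fit 17.2% of 14546 tested genes were called as higher. In the pair with Xist counts, 1 library against 1, the log2 ratios were 1.51, 0.91 and 1.68. All 3 genes were higher in both subsets, which had to be so because every knockout library lay above every WT library. The interaction of genotype with this state was called for 0 of the 8 genes by edgeR, 0 of them at an unadjusted p-value under 0.05, and also for 0 by limma voom and by DESeq2, where 2.90% of genes tested were called by edgeR.

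The tetrahydrobiopterin genes were higher in knockout on average, but none was called. Gch1 encodes GTP cyclohydrolase, the first and rate-limiting enzyme of the synthesis (ENSMUSG00000037580.10, chromosome 14, 47153895 to 47189413, minus strand). It had 189.9, 208 and 221 CPM in knockout and 146, 156 and 135 CPM in WT. The groups did not overlap, and the log2 fold change was 0.50 ± 0.141 (SE; edgeR adjusted p = 0.090).

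Qdpr encodes dihydropteridine reductase, which regenerates tetrahydrobiopterin (ENSMUSG00000015806.12, chromosome 5, 45434021 to 45450236, minus strand). It had 524, 512 and 736 CPM in knockout and 349.7, 349 and 348 CPM in WT. The WT libraries were almost equal, and all knockout libraries were above them, by a log2 fold change of 0.76 ± 0.197 (SE; edgeR adjusted p = 0.0766). Without knockout 1, where 16% of tested genes were called as higher, both genes were called, with adjusted p-values of 0.0196 for Qdpr and 0.0203 for Gch1. In the 5 refits that left out another library neither was called, with adjusted p-values from 0.118 to 0.259 for Qdpr and from 0.170 to 0.311 for Gch1. Both were called within the libraries with Y-linked counts (0.0347 and 0.0318), where 17.2% of genes were called as higher.

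Pcbd1 encodes pterin-4a-carbinolamine dehydratase, the other recycling enzyme, which also binds the transcription factor HNF1 (ENSMUSG00000020098.7, chromosome 10, 61089331 to 61094324, plus strand). It had 217, 163 and 235 CPM in knockout and 196, 173 and 163 CPM in WT. Knockout 2 fell within the WT range, and the log2 fold change was 0.21 ± 0.184 (SE; edgeR adjusted p = 0.493). The ratio of Qdpr to Pcbd1 counts was 2.41, 3.13 and 3.13 in knockout and 1.79, 2.02 and 2.14 in WT, without overlap. That of Gch1 to Pcbd1 counts was 0.875, 1.27 and 0.941 in knockout and 0.746, 0.903 and 0.831 in WT, which overlapped. In all, 6 of the 8 genes had groups that did not overlap, all with knockout higher, where 16.9% of all genes tested did so with knockout higher and 15.5% with knockout lower.

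Levels of different genes can be set side by side only per length, here as CPM per kilobase of exon (RPKM). In WT, Hpd was highest at 686 ± 83.3 RPKM, followed by Tat at 473 ± 29.3, Fah at 232 ± 6.56, Pcbd1 at 217 ± 20.8, Hgd at 198 ± 10.0, Qdpr at 195.0 ± 0.576, Gstz1 at 114 ± 5.95 and Gch1 at 23.3 ± 1.67 RPKM (SD, n = 3). Fah and Pcbd1, Pcbd1 and Hgd, and Hgd and Qdpr were neighbours whose WT ranges overlapped. In knockout the order was Tat at 1717 ± 669, Hpd at 1672 ± 411, Hgd at 741 ± 204, Qdpr at 330.4 ± 70.6, Fah at 264 ± 12.4, Pcbd1 at 251 ± 45.6, Gstz1 at 114 ± 23.6 and Gch1 at 33.0 ± 2.53 RPKM (SD, n = 3). Hgd stood among Fah, Pcbd1 and Qdpr in WT and above all of them in every knockout library, and the ranges of Tat and Hpd overlapped in knockout but not in WT. Those of Fah and Pcbd1 overlapped in knockout too.

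**Figure D3:**
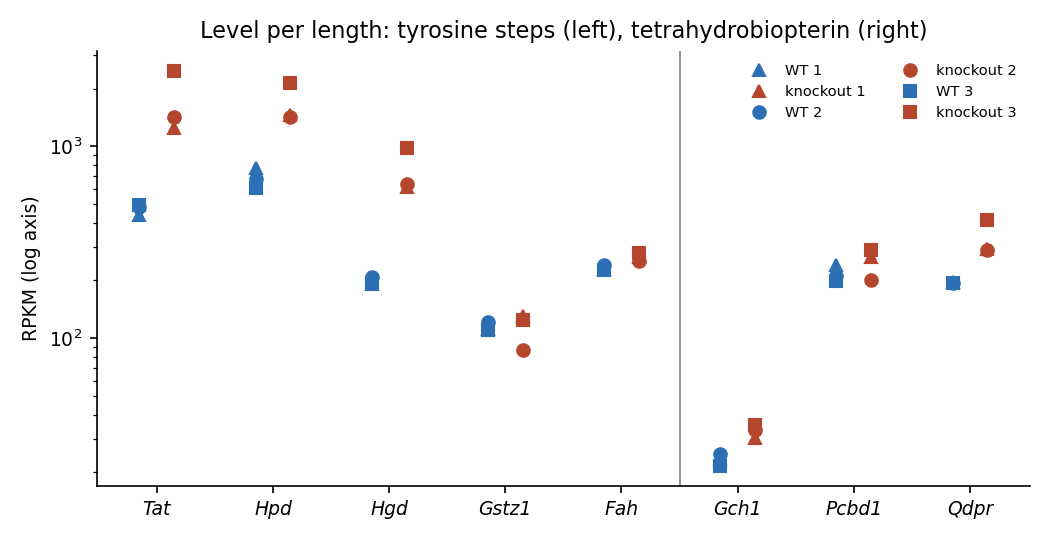
Level per length (RPKM, logarithmic axis) of the 5 tyrosine genes (left of the line) and the 3 tetrahydrobiopterin genes (right), with WT in blue and knockout in red. Tat, Hpd and Hgd move up in knockout and Gstz1, Fah and Pcbd1 lie near their WT levels, with Gch1 the lowest gene in both groups.

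Among the 8 genes Tat and Hgd had the most similar pattern over the 6 libraries. The root mean square difference of their log2 CPM values, each centred on the mean of the gene, was 0.111, while Hgd and Gstz1 were farthest apart at 0.976. Among 7503 other genes with a mean of at least 10 CPM, the 3 nearest to Tat were Gnmt at 0.0929, Hgd at 0.111 and Gm5424 at 0.140. Gnmt encodes glycine N-methyltransferase, an abundant liver enzyme that uses S-adenosylmethionine, and it stood at 2682, 2965 and 4699 CPM in knockout and 993, 1116 and 1020 CPM in WT (log2 fold change 1.73 ± 0.277, SE; edgeR adjusted p = 0.032). Gm5424, a processed pseudogene of Ass1, had a log2 fold change of 1.87 ± 0.228, and how reads were divided between the 2 copies was not tested. Nearest to Gch1 were Pcbp2 at 0.042, Aldh16a1 at 0.042 and Zfand3 at 0.0489, with log2 fold changes of 0.46, 0.50 and 0.48 and no call.

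Of 4 other genes of tetrahydrobiopterin metabolism, 0 were called and 4 had a positive log2 fold change, with a median of 0.64. An unadjusted p-value under 0.05 was found for 3 of them, beside 26.3% of all genes tested. Spr, sepiapterin reductase and the last enzyme of the synthesis, had 63.5, 81.9 and 80.7 CPM in knockout and 50.1, 47.1 and 48.6 CPM in WT, without overlap (log2 fold change 0.63 ± 0.136, SE; edgeR adjusted p = 0.056). Gchfr, the feedback regulator that binds GTP cyclohydrolase, had 85.2, 72.1 and 114.7 CPM against 58.1, 57.3 and 56.4 CPM (0.66 ± 0.184; adjusted p = 0.0873). Pts, the middle enzyme of the synthesis, had 25.1, 18.9 and 21.9 CPM against 21.6, 22.2 and 20.2 CPM, which overlapped (0.04 ± 0.135; adjusted p = 0.870). Dnajc12, a co-chaperone of aromatic amino acid hydroxylases, had 9.62, 11.7 and 15.8 CPM in knockout and 8.97, 7.91 and 7.89 CPM in WT, with a log2 fold change of 0.58 ± 0.203 and no call (adjusted p = 0.134).

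Side routes of aromatic amino acids, a list of 13 genes of which 12 were tested, had 1 gene called as higher and 0 as lower, and 6 with a positive log2 fold change. The called gene was Got1, the cytosolic aspartate aminotransferase. It had 823, 1727 and 1916 CPM in knockout and 228, 155 and 107.7 CPM in WT, a log2 fold change of 3.19 ± 0.431 (SE; edgeR adjusted p = 0.0214). Got2, its mitochondrial counterpart, had 545, 537 and 623 CPM against 518, 526 and 489 CPM, close together (0.15 ± 0.158; adjusted p = 0.566). Il4i1, an amino acid oxidase of immune cells, was at or below 0.684 CPM in every library.

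Fumarate and acetoacetate, the products of the route, are handled by a list of 7 genes, of which 1 was called as higher and 0 as lower, with a median log2 fold change of -0.26. Fh1, fumarate hydratase, had 588, 748 and 1025 CPM in knockout and 131, 169 and 156 CPM in WT, without overlap (log2 fold change 2.37 ± 0.255, SE; edgeR adjusted p = 0.0115). Of the other 6 genes, which include Acat1, Oxct1 and Aacs of acetoacetate use, none was called. Aacs and Sdhb, picked after their values were seen, did not overlap between the groups. Aacs had 22.8, 6.48 and 5.24 CPM in knockout and 60.6, 32.9 and 35.4 CPM in WT (-1.90 ± 0.588; adjusted p = 0.108). Sdhb had 201, 293 and 315 CPM against 132, 152 and 138 CPM (0.94 ± 0.204; adjusted p = 0.0566). In the list 4 genes overlapped.

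**Figure D4:**
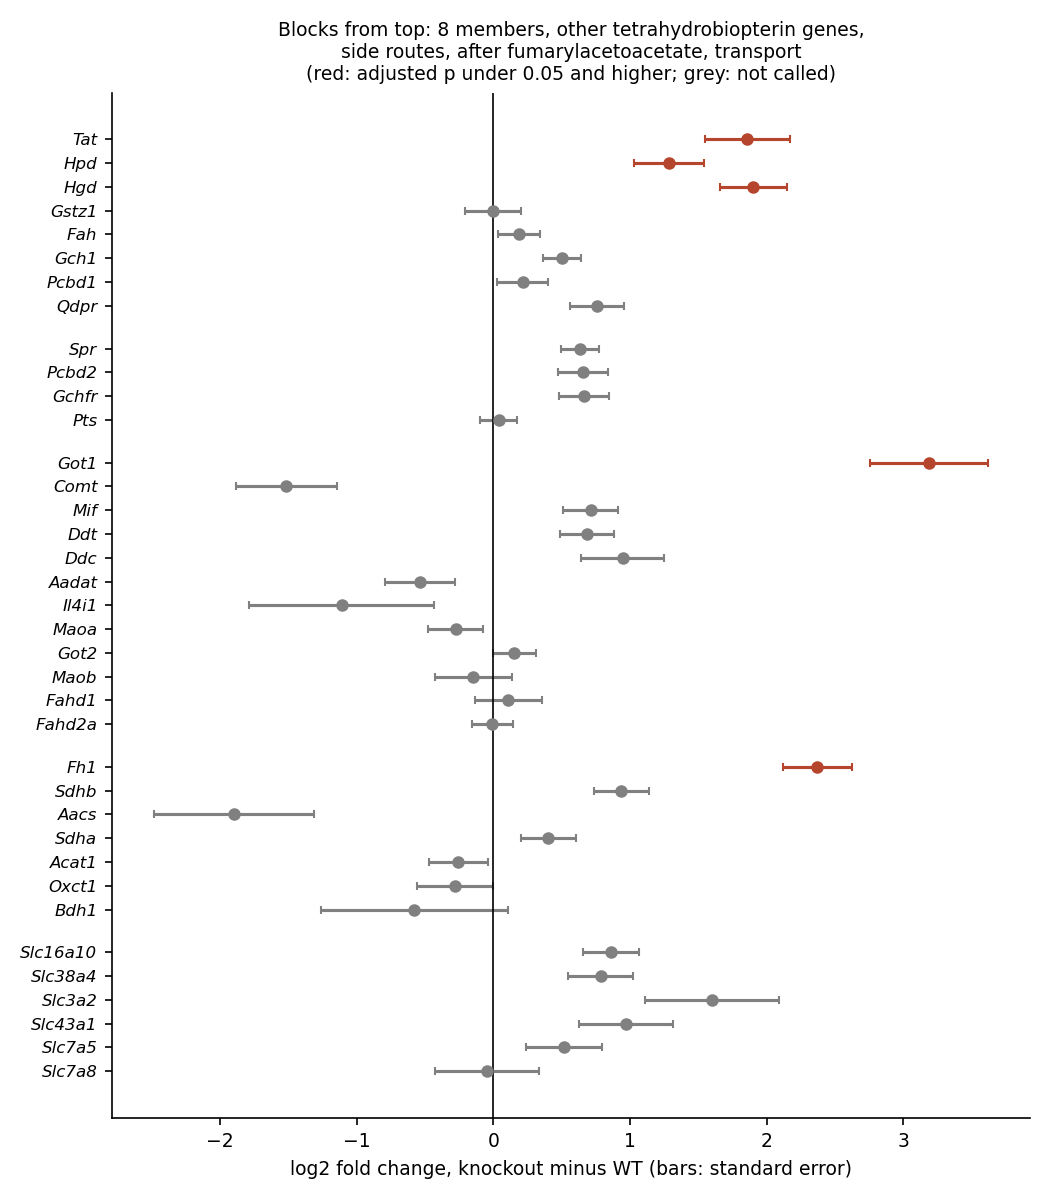
Log2 fold change of knockout over WT with its standard error for the 8 genes and for 4 lists of related genes, in blocks. Red points have an edgeR adjusted p-value under 0.05, which 5 of the genes drawn have: Tat, Hpd, Hgd, Got1 and Fh1.

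The samples are whole liver, so fewer cells of a type and less RNA per cell cannot be told apart. All 8 hepatocyte markers were abundant, as the labelled tissue has them. Their summed level lay between 22684 and 72188 CPM in knockout and between 87478 and 125813 in WT. Alb was the largest part of it, with a mean of 26160 CPM in knockout and 74222 in WT. Of the 8, 6 were lower in every knockout library, as 15.5% of all genes tested were, and 0 were called. An unadjusted edgeR p-value under 0.05 was found for 3 of the 8, beside 26.3% of all genes tested. The 7 endothelial markers summed to between 79.4 and 132 CPM in knockout and between 162 and 217 in WT. All 7 were lower in every knockout library and had an unadjusted edgeR p-value under 0.05, and 0 were called. Markers of Kupffer cells (7 genes), stellate cells (7) and bile ducts (6) overlapped between the groups, and 0 were called. Within the 4 libraries with Y-linked counts, Apoa1, Ttr, Fgb, Alb and Apob of hepatocytes were called as lower by edgeR. Ambp, Serpina1a and Apoc3 were not called there. Tek, Kdr, Pecam1, Clec4g, Cdh5 and Stab2 of endothelial cells were also called as lower in these libraries, and Oit3 was not. Vsig4, Adgre1, Csf1r and C1qa of Kupffer cells were called as lower and Marco as higher. Col3a1, Col1a1, Reln and Lrat of stellate cells and Spp1 of bile ducts were called as lower there too. In this fit 4847 of 14546 tested genes were called. In the Xist pair the log2 ratios of Vsig4, Adgre1, Csf1r and C1qa were 0.54, 0.52, 0.27 and 0.08. Those of Marco and Spp1 were -0.19 and 0.05. Those of Col3a1, Col1a1, Reln and Lrat were -0.67, -0.64, -0.82 and -0.23. No marker of the 5 lists was at 0 in any library. The part of these differences in the results for Tat, Hpd and Hgd was not tested.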

How the data were processed

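Poly(A) RNA of the left liver lobe was sequenced with 1 library per mouse. The authors deposited a table of expected counts per gene, the estimated read numbers of RSEM; the submitters' processing notes name bcl2fastq 2.17, cutadapt 1.18, STAR 2.7.0f, RSEM 1.3.1 and the build mm9. All 55450 gene identifiers were found in GENCODE M21 (GRCm38), and positions and exon lengths were taken from it. The use of strand is not given in the sources used here, so counts of overlapping genes are uncertain.

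Expected counts were rounded. Genes were kept by filterByExpr of edgeR 4.0.16 (14539 genes), scaled by TMM and tested with glmQLFit and glmQLFTest in R 4.3.3, with the group as the only term and Benjamini-Hochberg adjustment over all genes tested. The SE is the log2 fold change divided by the square root of F. Log2 CPM values use a prior count of 2. RPKM is CPM per kilobase of all annotated exons of a gene, which ignores the mix of isoforms. The test was tried on simulated counts. Alternatives used limma 3.58.1 and DESeq2 1.42.0. Groups and replicate numbers came from the sample titles, and each column was matched to a sample by its description, with 0 columns left over.

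The 8 genes, the lists and the tests were chosen with earlier results of these data known. Named genes are Stk11, the 8 genes, 8 related genes whatever their result (another in the rule is not reported here), up to 4 called genes per list, and the 3 genes nearest in pattern to Tat and to Gch1; a few others are named as members of a list. Promoters came from RefSeq (GRCm38.p6), which held 9 windows for the 8 genes, and motifs were chosen after the results were seen. Where nothing says more, p-values set the difference between the groups against the spread within them, over these 6 mice.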

Additional observations from a re-analysis of the deposited data

How the results depend on the processing

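Of the 8 genes, 3 were called as higher in the main analysis and 0 as lower, and 0 were called as lower under any alternative. DESeq2 called 5 as higher among 2288 genes in all, and the 4 libraries with Y-linked counts also gave 5 as higher among 4847. Refits that each left out 1 library called 0 to 5 of the 8 as higher, among 6 to 4473 genes in all, against 490 with all 6 libraries. No filter on low counts gave 771 genes, and a term for the Xist or Y-linked state 1504, each with 3 of the 8. With the replicate number as a block 0 of the 8 were called and 105 genes in all, with adjusted p-values of 0.0795 for Tat, 0.106 for Hpd and 0.0663 for Hgd at log2 fold changes of 1.79, 1.26 and 1.87. The labels give same-numbered samples no more than a number, although replicate 1 of both groups also shares the Xist state and the others the Y-linked state. Deviations from the group mean correlated at 0.178, 0.0443 and 0.0679 for replicates 1, 2 and 3, and knockout 2 and 3 correlated best with another number. The block leaves fewer residual degrees of freedom.

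Scaling by library size alone added Qdpr (adjusted p = 0.0493) and shifted the median of all genes by 0.0459 on the log2 scale. The log2 fold change of Gstz1 changed sign, to 0.0328 with that scaling, and ran from -0.123 to 0.164 where 1 library was left out (positive without knockout 2 or WT 2). That of Pts was -0.0631 among libraries with Y-linked counts, and ran from -0.0718 (without knockout 1) to 0.146. Got1 lost its call without knockout 2 or 3 or WT 2 or 3 (edgeR adjusted p from 0.062 to 0.142). With the replicate block it was not called either (0.0727). Fh1 was not called without WT 2 or WT 3 (0.096 and 0.104). Sgk1 was not called without knockout 3, WT 2 or WT 3 (0.0607, 0.102 and 0.104). When 1 library was left out, Gnmt kept its call only without knockout 1 (0.00426). The interaction with the Xist or Y-linked state was called for 421 genes, for 1607 with no filter, 984 with DESeq2 and 67 to 4679 where 1 of the libraries with Y-linked counts was left out, and for 0 of the 8 genes except for 0 to 2 of them in those last refits, which have 1 residual degree of freedom. The cause of these changes was not tested. Total counts did not limit the 8 genes, which had at least 6321 counts in every library.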

Other observations

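Lists for the control of Tat and for the entry of aromatic amino acids were examined as well. Of 9 transcription factors known to act on Tat, 0 were called by edgeR, and 3 had an unadjusted p-value under 0.05, as 26.3% of all genes tested did. These 3, Nr3c1, Cebpa and Foxa1, were lower in every knockout library, as 15.5% of all genes tested were. Their log2 fold changes were -0.54, -0.56 and -0.88. In the list 4 genes had a positive log2 fold change, the largest 0.70 for Cebpb, and 5 a negative one. Nr3c1, the glucocorticoid receptor, had 74.4, 62.9 and 66.0 CPM in knockout and 102.7, 99.4 and 93.2 CPM in WT, so that every knockout library was lower (log2 fold change -0.54 ± 0.124, SE; edgeR adjusted p = 0.0637). Of 6 genes known to be induced by glucocorticoids, as Tat is, 1 was called as higher and 0 as lower, with a median log2 fold change of 1.22. The called gene was Sgk1, a serum- and glucocorticoid-induced kinase, with 104.5, 252 and 150.5 CPM in knockout and 21.1, 18.1 and 18.9 CPM in WT (log2 fold change 3.12 ± 0.333, SE; edgeR adjusted p = 0.0112). Fkbp5 and Zbtb16 of this list, singled out after their values were seen, had log2 ratios of 2.07 and 1.74 among libraries with Y-linked counts. Their ratios were negative for the Xist pair, at -0.89 and -1.24. The ratios of Tat were positive in both subsets, at 1.94 and 1.51 in the same order. Positive in both were also Sgk1 (3.39 and 2.30), Dusp1 (1.74 and 0.66) and Per1 (2.23 and 0.49) of the list. Tsc22d3 had -0.34 and 0.24. Whether a shared cause acts on Tat and these genes was not tested.

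Of 7 transporters of aromatic and other neutral amino acids, 6 were tested and 0 were called by edgeR. An unadjusted p-value below 0.05 was found for 4 of them, beside 26.3% of all genes tested, and the median log2 fold change was 0.82. Slc16a10, a carrier of aromatic amino acids chosen after its values were seen, had 146.8, 175 and 234 CPM in knockout and 116, 95.6 and 93.8 CPM in WT, without overlap (log2 fold change 0.86 ± 0.207, SE; edgeR adjusted p = 0.0687).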
